A study of Mus musculus with 4 samples.

Results

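Serpina3g, Pls1 and Apoe are 3 genes outside the immunoglobulin loci whose RNA was higher in splenic plasma cells with a high level of a Blimp1 reporter than in plasma cells with an intermediate level. They were chosen by that difference in the deposited values (Blimp1-hi minus the mean of the intermediate arrays, above 2-fold for all 3), so it is described here and not tested. Each gene is measured by 1 probe, found through the NCBI gene number in the probe identifier (20715 for Serpina3g, 102502 for Pls1 and 11816 for Apoe). They stand among 8127 genes with a named probe, of which 2611 exceeded the background level on at least 1 array, as all 3 did.

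The samples were 4 single-colour Illumina arrays of RNA from spleen cells of C57BL/6 mice that all carry the prmd1-gfp reporter, so that green fluorescent protein marks cells expressing Blimp1, the transcription factor that drives plasma cell differentiation. The groups were Blimp1-hi plasma cells (CD138+ Blimp1 high, 1 array), Blimp1-int plasma cells (CD138+ Blimp1 intermediate, 2 arrays, called replicates 1 and 2) and naive follicular B cells (B220+ IgD+, 1 array). The cells were sorted directly from untreated animals, the plasma cells from pools of 5 to 10 mice; ages are not given in the labels. The source field of the plasma cell arrays names follicular B cells, against their titles and sort descriptions, which the grouping follows.

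Plasma cells are the antibody-secreting end stage of the B cell lineage, and their level of Blimp1 rises as they mature. Serpina3g encodes Spi2A, a serpin that acts inside cells and inhibits lysosomal cathepsins that reach the cytosol; it is known from activated lymphocytes. Pls1 encodes plastin 1 (fimbrin), which bundles actin filaments and is known from the microvilli of the intestinal brush border and from stereocilia of the inner ear. Apoe encodes apolipoprotein E, a lipid carrier and ligand of the LDL receptor family that macrophages make in quantity under control of the liver X receptors.

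The promoter windows of the 3 genes are shown because the genes share their direction between the plasma cell populations. Each window runs from 250 bases before a RefSeq start site to 50 bases after it, read 5′ to 3′ on the gene's strand in build GRCm38.p6. They lie at chr12:104235897-104236196 (plus strand, Serpina3g), chr9:95845230-95845529 (minus strand, Pls1) and chr7:19699139-19699438 (minus strand, Apoe, the first of its 3 windows in the table). Capitals mark a motif match.
Serpina3g: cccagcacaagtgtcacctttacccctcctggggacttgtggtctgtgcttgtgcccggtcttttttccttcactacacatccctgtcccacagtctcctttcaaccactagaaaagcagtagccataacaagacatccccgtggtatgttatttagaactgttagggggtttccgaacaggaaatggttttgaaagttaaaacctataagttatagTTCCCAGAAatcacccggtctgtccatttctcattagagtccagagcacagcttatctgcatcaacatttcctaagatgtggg
Pls1: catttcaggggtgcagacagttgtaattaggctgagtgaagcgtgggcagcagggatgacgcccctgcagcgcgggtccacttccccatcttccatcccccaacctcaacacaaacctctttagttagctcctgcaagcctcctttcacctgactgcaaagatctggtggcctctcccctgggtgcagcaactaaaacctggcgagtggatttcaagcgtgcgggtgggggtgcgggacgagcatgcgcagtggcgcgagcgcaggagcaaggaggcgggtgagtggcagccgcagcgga
Apoe: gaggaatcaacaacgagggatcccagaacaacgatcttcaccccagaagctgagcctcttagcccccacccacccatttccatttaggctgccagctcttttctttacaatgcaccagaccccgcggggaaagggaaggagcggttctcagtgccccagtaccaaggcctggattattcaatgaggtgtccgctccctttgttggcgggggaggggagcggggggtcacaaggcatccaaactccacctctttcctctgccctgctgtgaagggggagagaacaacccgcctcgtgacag
Both strands were searched for AGNGAAAG (a Blimp1 core with its flank), the core of the interferon-stimulated response element (GAAA, any 2 bases, GAAA), TTCNNNGAA (the palindrome bound by STAT factors) and CACGTG (an E-box). The 1 match among the 5 windows of the 3 genes was TTCCCAGAA in the Serpina3g window, at position -33 from the start site, where the first transcribed base is 1. TTCNNNGAA occurs in 8.3% of all 32851 windows of this length. AGNGAAAG occurs in 8.63%, the response element core in 3.44% and CACGTG in 7.15% of them. A match is a stretch of letters and not a bound site, and an absent match says only that these letters are not in the window.

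Across the arrays, levels are given as deposited, in log2 units, with a median of 8.36 on each array. The background level, set from probes for sequences foreign to the mouse, lay between 8.65 and 8.69, and between 6359 and 6864 of the 46120 probes exceeded it per array. The reporter's eGFP probe read 11.23 in Blimp1-hi cells, 10.55 and 10.82 in the Blimp1-int replicates cells and 8.29 in naive cells. Of 11 listed plasma cell markers, 6 were tested and 6 were called higher in plasma cells than in naive cells, against 5.09% of all genes tested. Only 2 of these 6 exceeded background in naive cells. Sdc1, among the 6, encodes CD138, on which the plasma cells were sorted, so its call was close to fixed by the sort. Of 12 listed B cell markers, 4 were tested and 3 were called lower, against 6.28% of all genes tested. All 4 exceeded background in naive cells alone, so a lower level in plasma cells was close to fixed by the background filter. The filter thus favours both shares. Ptprc, whose B220 form was used to sort the naive cells, read between 8.52 and 8.71, near background on every array, and says nothing about the sort.

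Serpina3g was above background on all 4 arrays, by at least 1.40. Its level was 11.87 in Blimp1-hi, 10.06 and 11.10 in the Blimp1-int replicates and 11.46 in naive cells. Blimp1-hi was the highest array and Blimp1-int replicate 1 the lowest, with naive cells above both Blimp1-int replicates. The Blimp1-int replicates differed by 1.04 for this gene, against a median gap of 0.083 over the 2611 genes tested, the second largest gap of them all. Blimp1-hi exceeded the Blimp1-int mean of 10.58 ± 0.73 (SD, n = 2) by 1.29, which is 2.45-fold. It exceeded replicate 1 by 1.81 (3.51-fold) and replicate 2 by 0.77 (1.71-fold), so that the 2-fold difference depends on replicate 1. In these bulk samples, fewer cells that express a gene and less RNA per cell cannot be told apart.

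Pls1 was detected on the plasma cell arrays and was below background on the naive one. Its level was 10.15 in Blimp1-hi, 9.07 and 9.13 in the Blimp1-int replicates and 8.24 in naive cells. The populations are ordered Blimp1-hi, Blimp1-int, naive, and the Blimp1-int replicates lay within 0.063 of each other. Blimp1-hi exceeded the Blimp1-int mean of 9.10 ± 0.044 (SD, n = 2) by 1.05 (2.07-fold). It was the 1 gene of the 3 for which Blimp1-hi exceeded each Blimp1-int replicate by at least 2-fold, with a difference of 1.08 against replicate 1 and of 1.02 against replicate 2. Because the naive level is only a bound, the fold over naive cells was at least 2.83 for Blimp1-hi and at least 1.36 for the Blimp1-int mean.

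Apoe was above background on all 4 arrays, though narrowly in Blimp1-int. Its level was 9.91 in Blimp1-hi, 8.76 and 8.97 in the Blimp1-int replicates and 9.22 in naive cells. Blimp1-hi was again the highest array and both Blimp1-int replicates the lowest, with replicate 1 only 0.093 above its background level. Blimp1-hi exceeded the Blimp1-int mean of 8.86 ± 0.15 (SD, n = 2) by 1.05 (2.07-fold), with 1.15 against replicate 1 and 0.94 against replicate 2. The sources used here do not say if variance stabilization went into the log2 values, and folds of genes this near background would then be understated.

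**Figure D1:**
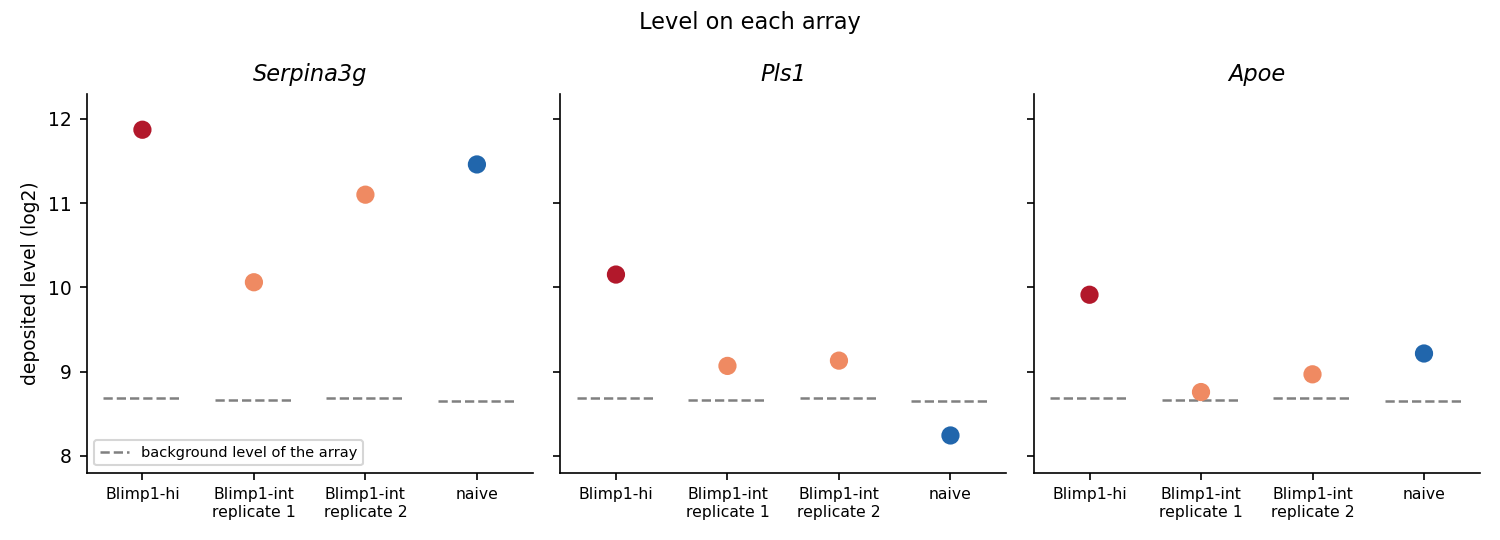
Level of Serpina3g, Pls1 and Apoe (vertical axis, deposited values, log2) on each of the 4 arrays, with 1 point per array and a dashed line at that array's background level. Blimp1-hi is the highest array for all 3 genes (11.87, 10.15 and 9.91), the Blimp1-int replicates of Serpina3g lie 1.04 apart, and Pls1 is below background in naive cells (8.24).

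Differences of this size between the plasma cell populations were rare among named genes. Of the 2611 genes tested, 0.191% (5 genes) were at least 1 higher in Blimp1-hi than in the Blimp1-int mean and 0.421% (11 genes) at least 1 lower. The 5 are Serpina3g, Pls1, Apoe, an immunoglobulin kappa variable segment and ND5, a mitochondrially encoded subunit of complex I that read 9.83 in Blimp1-hi, 8.66 and 8.96 in the Blimp1-int replicates and 8.59 in naive cells. Blimp1-hi exceeded both Blimp1-int replicates for 28.1% of genes. Just inside the 2-fold edge were Apoe at 1.05 and ND5 at 1.01. Just outside it were Fth1, the ferritin heavy chain (0.96), Sft2d2 (0.93), Il4i1, an amino acid oxidase (0.86), the glycine transporter Slc6a9 (0.84) and the chromatin organizer Satb1 (0.81). Over all 8859 probes above background on at least 1 array, named or not, 108 were at least 1 higher in Blimp1-hi. Of these 81 were immunoglobulin probes, 4 were probes of the other named genes and 23 had no gene name here.

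**Figure D2:**
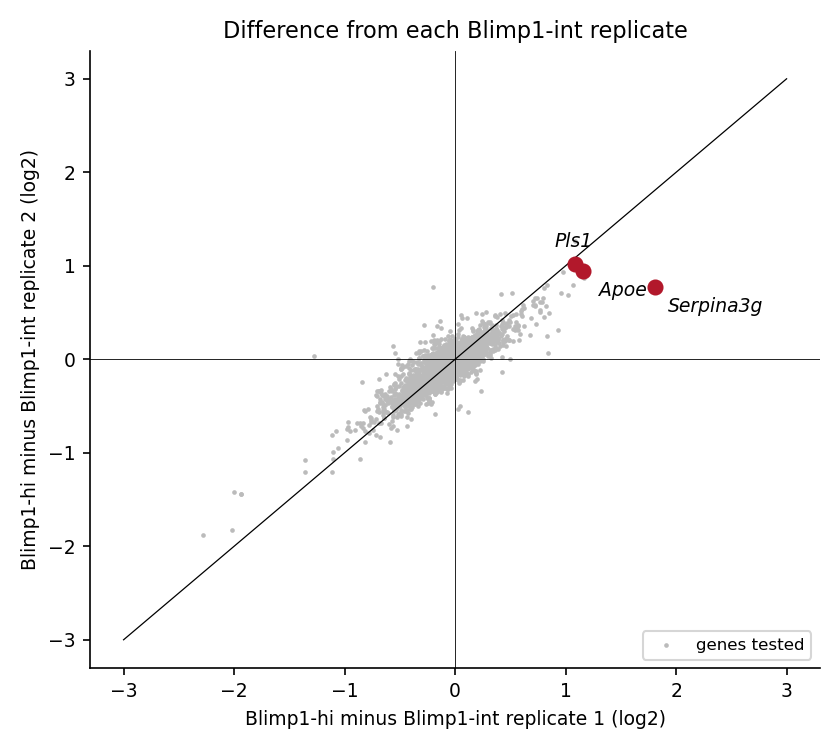
Blimp1-hi minus Blimp1-int replicate 1 (horizontal axis) and minus replicate 2 (vertical axis), both log2, for the 2611 genes tested (grey points), with the line of equal differences and the 3 genes in red. Pls1 (1.08 and 1.02) and Apoe (1.15 and 0.94) lie near the line, and Serpina3g (1.81 and 0.77) lies off it.

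How plasma cells as a whole compared with naive B cells was tested on another contrast than the one that chose the 3 genes. It shares the plasma cell arrays with that choice. It sets the mean of the 3 plasma cell arrays against the naive array and, if arrays vary equally, is uncorrelated with the difference between Blimp1-hi and Blimp1-int. A gene was called where limma's adjusted p (Benjamini-Hochberg, over all 2611 genes) was under 0.05 and the difference at least 1 (2-fold). By this rule 5.09% of genes were called higher and 6.28% lower in plasma cells, and of the 3 genes 1 was called higher and none lower. Pls1 averaged 9.45 in plasma cells against 8.24 in naive cells, a difference of 1.21 (SE 0.10, limma adjusted p = 1.83e-07), in the same direction on 3 of 3 plasma cell arrays. As its naive level is a bound, this is at least 1.74-fold. Pls1 passed the background filter through the plasma cell arrays alone. Its Blimp1-int mean exceeded naive by 0.86, so the 2-fold rule was met only with the Blimp1-hi array. The call of Pls1 ended when plasma cells were fitted as 1 group (adjusted p = 0.0735), since the spread in that fit includes the Blimp1-hi minus Blimp1-int difference for which the gene was chosen.

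Serpina3g and Apoe were not called between plasma and naive cells. Serpina3g averaged 11.01 in plasma cells against 11.46 in naive cells, a difference of -0.45 (SE 0.25, limma adjusted p = 0.139). The difference was -0.16 when normalized without the immunoglobulin probes and -0.63 with cyclic loess. Without Blimp1-int replicate 1, the mean of the remaining plasma cell arrays was 0.027 above naive. Blimp1-hi, on which the genes were chosen, weighs more in that mean than in the mean of all plasma cell arrays. Apoe averaged 9.21 in plasma cells against 9.22 in naive cells, a difference of -0.0025 (SE 0.11, limma adjusted p = 0.985). A p over the threshold does not show that the levels are equal. The naive and Blimp1-hi groups have 1 array each and borrow their spread from the Blimp1-int pair, the source of the single residual degree of freedom. Nothing in the labels says that this pair came from separate animals, so the p-values reflect only how far these samples differ, and that may be technical variation.

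By population, the 3 genes had 2 kinds of pattern. Pls1 exceeded its naive level in both plasma cell populations, by 1.91 (Blimp1-hi) and by 0.86 (Blimp1-int mean). Serpina3g in Blimp1-hi exceeded naive by 0.41 (0.85 when normalized without the immunoglobulin probes, 0.29 with cyclic loess), whereas Blimp1-int replicates 1 and 2 differed from naive by -1.40 and -0.36. Apoe in Blimp1-hi exceeded naive by 0.70, and the Blimp1-int replicates differed from naive by -0.46 and -0.25. For Serpina3g and Apoe, Blimp1-hi thus lay above naive and both Blimp1-int replicates below it, an order found in 2.34% of the genes tested. That share is over all genes, whereas these were chosen for Blimp1-hi above Blimp1-int. Blimp1-hi exceeded both Blimp1-int replicates for 28.1% of the genes tested, so the 2.34% overstates how rare the order is among such genes. The differences from naive use the arrays on which the genes were chosen and were not tested.

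**Figure D3:**
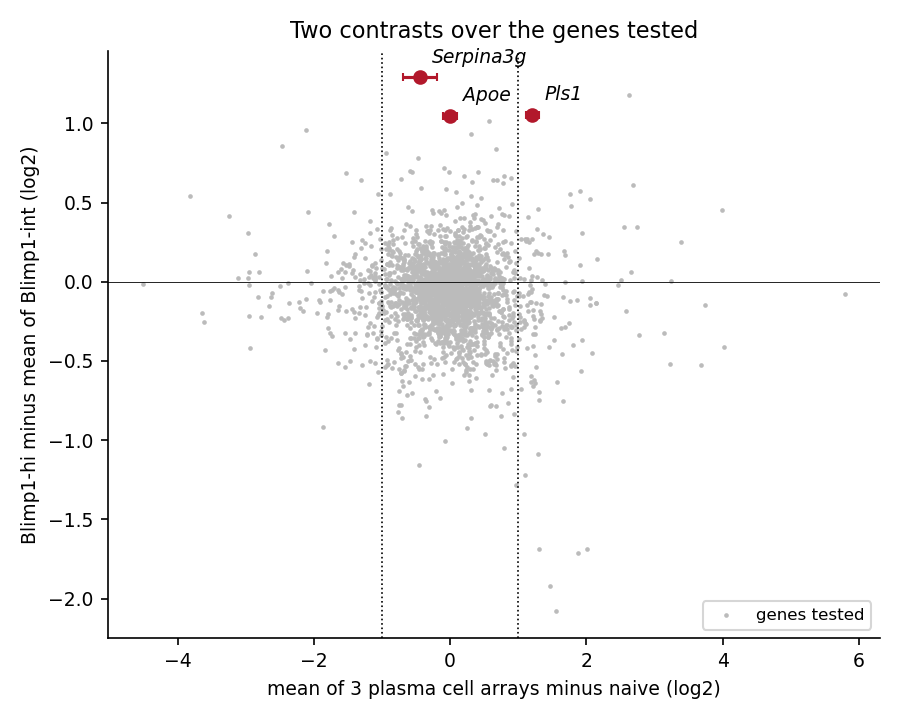
Mean of the 3 plasma cell arrays minus naive (horizontal axis, log2, dotted lines at -1 and 1) and Blimp1-hi minus the Blimp1-int mean (vertical axis, log2) for the 2611 genes tested (grey) and the 3 genes (red, horizontal bars are the SE from limma). Serpina3g, Apoe and Pls1 are all above 1 on the vertical axis and are spread along the horizontal one at -0.45, -0.0025 and 1.21.

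Close relatives of the 3 genes were at or below background on nearly all arrays. The Serpina3 genes lie in a cluster of related copies, and a probe cannot always tell such copies apart. Probe sequences were not at hand, so the specificity of the Serpina3g probe was not computed. Of 5 cluster members with a probe, the other 4 (Serpina3a, Serpina3k, Serpina3m and Serpina3n) were below background on all 4 arrays, between 8.15 and 8.49. Cluster members without a named probe here, such as Serpina3f, were not analysed, so part of the Serpina3g signal could come from one of them; this was not tested. Of the plastins, Pls3 was below background on all arrays (8.53 in Blimp1-hi, 8.30 and 8.38 in the Blimp1-int replicates, 8.30 in naive cells). Lcp1, the plastin of leukocytes, was below background in all plasma cells (8.54 in Blimp1-hi, 8.63 and 8.60 in the Blimp1-int replicates) and read 9.36 in naive cells, the reverse of Pls1. It was at least 1.60-fold lower in plasma cells and, with a difference of -0.77 (limma adjusted p = 1.43e-05), was short of the 2-fold rule. Lcp1 passed the background filter through naive cells alone, so a lower level in plasma cells was close to fixed by that filter. Of 6 other apolipoprotein genes with a probe, 5 were below background on all arrays, among them Apoc2 and Apoc4, which neighbour Apoe in the genome. Apoa2 exceeded background on 1 array, Blimp1-int replicate 1 (8.72).

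**Figure D4:**
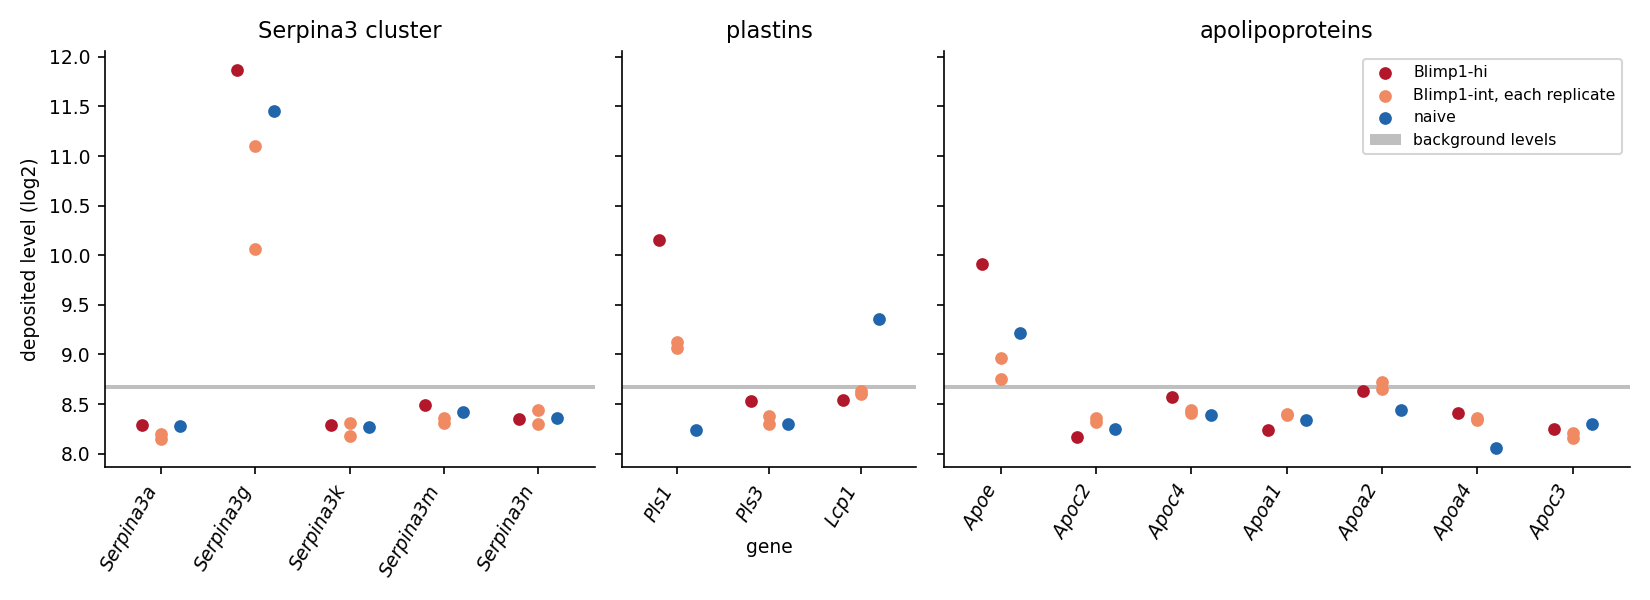
Level (vertical axis, deposited values, log2) of Serpina3g, Pls1 and Apoe and of their relatives with a named probe, with Blimp1-hi in red, each Blimp1-int replicate in orange, naive in blue and the range of background levels in grey. The relatives lie at or below background, except Lcp1 in naive cells (9.36) and, by little, Apoa2 on 1 array (8.72).

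Genes of the pathways around each member were taken from lists, which are described by counts and medians with no test of the list. Among targets and inhibitors around Serpina3g, 15 cathepsins were listed and 3 tested. Ctsb, the lysosomal protease cathepsin B, was called higher in plasma cells, with 12.46 in Blimp1-hi, 12.46 and 12.35 in the Blimp1-int replicates and 9.77 in naive cells (2.66, SE 0.10, limma adjusted p = 7.27e-11). Ctse and Ctsz were not called (0.89 and -0.31), both short of the 2-fold rule with limma adjusted p of 3.77e-06 and 0.0160. Ctse was below background in naive cells (8.41) and passed the filter through plasma cells alone, so its difference is a bound, at least 1.57-fold. Cystatin C, a secreted cathepsin inhibitor encoded by Cst3 and the 1 cystatin tested, was not called in plasma cells (0.41, with 0.81 when normalized without the immunoglobulin probes and 0.028 with cyclic loess) but read 12.88 in Blimp1-hi, 12.14 and 12.23 in the Blimp1-int replicates and 12.01 in naive cells, so that Blimp1-hi lay 0.70 above the Blimp1-int mean. Serpinf1 and Serpinb6a, the other serpins of 3 tested, were not called (0.29 and -0.10). Serpina3g is known as a target of interferon and of NF-kB. Of 10 tested interferon-inducible genes none was called by limma at the 2-fold rule (6 had an unadjusted p under 0.05), with Igtp at 0.92 and Irf1 at -0.82. Of 6 tested NF-kB genes 2 were called lower, the receptor Cd40 (at least 2.82-fold) and the kinase Map3k14 (-1.11), and none higher. Cd40 and Map3k14 exceeded background in naive cells alone, so they entered the test only through the group where they are high. Over all genes tested 6.28% were called lower and 5.09% higher, and the absence of a call among the 10 interferon-inducible genes is near that background.

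Of 54 plastin and actin-binding genes, 19 were tested, 7 were called lower and 11 were not called, against 6.28% lower over all genes. The 1 called higher was Pls1, a share near the 5.09% over all genes. Their median difference was -0.61, against -0.012 over all genes tested. Cnn3, an actin-binding calponin, was at least 6.22-fold lower in plasma cells. It passed the background filter through naive cells alone, as Pls1 did through plasma cells. Pfn1 (profilin, which binds actin monomers) fell, with a difference of -1.75, as did Swap70 (an actin-binding signalling protein of B cells, -1.41) and Arpc1b (a subunit of the Arp2/3 complex, -1.40), with SE of 0.10 to 0.11. Between the plasma cell populations this list had a median Blimp1-hi minus Blimp1-int difference of -0.045, against -0.064 over all genes, and Pls1 was 1 of 5 members with Blimp1-hi above both Blimp1-int replicates.

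Around Apoe, 31 apolipoprotein and receptor genes were listed and 5 tested. Sorl1, a sorting receptor of the LDL receptor family that binds apolipoprotein E, was called lower in plasma cells (at least 2.40-fold). It read 8.31 in Blimp1-hi, 8.24 and 8.53 in the Blimp1-int replicates and 9.95 in naive cells, through which alone it passed the background filter. Lrpap1, the chaperone of LDL receptor family members in the endoplasmic reticulum, was called higher (1.11, SE 0.10). Of 4 tested liver X receptor and lipid efflux genes, none was called by limma at the 2-fold rule (3 had an unadjusted p under 0.05). Among them was Abcg1, a cholesterol exporter and liver X receptor target. It read 9.52 in Blimp1-hi, 8.70 and 8.95 in the Blimp1-int replicates and 9.61 in naive cells. Blimp1-hi thus lay 0.70 above the Blimp1-int mean, against 1.05 for Apoe, but below naive, where Apoe lay above it. Scd2, a fatty acid desaturase, read 10.99 in Blimp1-hi, 10.78 and 10.98 in the Blimp1-int replicates and 10.51 in naive cells.

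Apoe is abundant in macrophages, so macrophage markers were read beside it. Of 22 listed markers 8 had a probe, and Csf1r, C1qa, C1qb, Cd68, Lyz2, Itgam and Mertk were below background on all 4 arrays. Vcam1 exceeded background on Blimp1-int replicate 2 alone (8.99). The sum of the 8 log2 levels was 66.8 in Blimp1-hi, 66.9 and 68.0 in the Blimp1-int replicates and 66.7 in naive cells, and as nearly all of these readings are below background the sum holds little signal. None of 3 T and NK cell or 6 granulocyte markers with a probe exceeded background on any array. Of 3 dendritic cell markers with a probe, Zbtb46 and Batf3 were below background throughout, and the other is Cst3, which other cells also express and which, like Apoe, was highest in Blimp1-hi. Of 7 stromal and endothelial markers Pecam1 alone exceeded background, on all 4 arrays, with 8.80 in Blimp1-hi, 8.76 and 8.73 in the Blimp1-int replicates and 9.66 in naive cells. The 1 erythroid marker with a probe, Hba-a1, exceeded background in naive cells alone (8.70). The part of such cells in the levels of the 3 genes was not tested.

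The genes whose pattern was most like each member were ranked by the Euclidean distance between deviations from the gene's own mean over the 4 arrays (log2 units). For Pls1 these were Cebpb, a basic leucine zipper transcription factor (distance 0.43), the intracellular chloride channel protein Clic4 (0.50), Slc6a9 (0.51), the potassium channel subunit Kcnmb4 (0.52) and the prolactin receptor Prlr (0.54). Cebpb read 10.30 in Blimp1-hi, 9.58 and 9.72 in the Blimp1-int replicates and 8.97 in naive cells. For Apoe they were the survival gene Bcl2 (0.28), Sft2d2 (0.29), Zfp36l1, which promotes decay of AU-rich mRNAs (0.31), the histone gene H2ac19 (0.37) and Twsg1 (0.39). Bcl2 read 9.29 in Blimp1-hi, 8.50 and 8.64 in the Blimp1-int replicates, both below background, and 8.90 in naive cells. For Serpina3g the nearest were Apoe (0.73), Abcg1 (0.74), Plekha1 (0.79), Samsn1, an adaptor of B cell signalling (0.80) and Mroh1 (0.81). No gene came as near to Serpina3g as the nearest did to the other members. The nearest ones shared the direction of the gap between its Blimp1-int replicates, with replicate 1 below replicate 2, but not its size of 1.04. The widest gap among them was that of Mroh1, which read 9.14 and 9.55 in Blimp1-int replicates 1 and 2. With 4 arrays, such distances describe these samples only.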

How the data were processed

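RNA from 4 sorted cell samples was amplified to labelled cRNA and hybridised to 1 Illumina array each. The log2 values used were deposited by the authors, who, per the submitters' processing notes, used lumi in R; its version, transform and background step are not given in the sources used here. The arrays hold nearly the same sorted values. A table of raw signals was not used, because the names of its 8 per-sample columns match no sample. Probes carry no symbols: 9832 of 11897 zero-padded numbers in their identifiers were found as NCBI gene numbers in RefSeq (GRCm38.p6, for names only). Background was the mean plus 3 SD of 53 foreign probes on each array. The planned test was run with limma 3.58.1 (R 4.3.3; lmFit, then contrasts.fit and eBayes; two-sided) on the brightest probe per gene, and was tested on simulated data. The number of arrays limits its precision. A probe below background has only a bound, taken against its own value or the array's lowest signal above background, whichever is higher. Promoter windows are RefSeq's; all 3 genes matched by gene number.

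The 3 genes, the gene lists and the tests were chosen with earlier results of these data known. Named are the 3 genes and their relatives, up to 4 called or 2 uncalled genes per list by size of difference, the 5 genes nearest in pattern, the genes at the edge of the choice and sort markers; Ctse, Ctsz and Serpinb6a were chosen after their values were seen. Alternatives were other normalizations, filters, probe summaries, group codings and a left-out replicate.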

Additional observations from a re-analysis of the deposited data

Results flagged for a closer look

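For 2 of the 3 genes the plasma cell populations lay on opposite sides of the naive array. Serpina3g was 0.41 above naive in Blimp1-hi, and Blimp1-int replicates 1 and 2 differed from naive by -1.40 and -0.36. Apoe was 0.70 above naive in Blimp1-hi, and Blimp1-int replicates 1 and 2 differed from naive by -0.46 and -0.25. This difference between the populations was not tested, since it is the one for which the genes were chosen. It rests on 1 Blimp1-hi and 1 naive array.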

How the results depend on the processing

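The genes were chosen for the Blimp1-hi minus Blimp1-int difference on these same arrays, so its sign was close to fixed and is no separate check. The Blimp1-hi minus Blimp1-int differences stayed above 0 under every normalization and left-out replicate tried. Each gene has 1 probe, so the probe summary could not move them. They ranged, without replicate 1 or 2, between 0.77 and 1.81 for Serpina3g, 1.02 and 1.08 for Pls1, and 0.94 and 1.15 for Apoe; with 75th percentile scaling over the genes tested, Pls1 gave 1.12. The differences of single populations from naive kept their sign under each other normalization, though that of Serpina3g in Blimp1-hi moved between 0.29 and 0.85. Against naive, Pls1 in plasma cells stayed called in every alternative fit except that with 2 groups (1.21, limma adjusted p = 0.0735; range of adjusted p over the alternatives 2.08e-23 to 0.0735). Leaving out replicate 1 or 2 leaves no residual degree of freedom and so no test. The mean of the remaining plasma cell arrays minus naive was then 1.37 to 1.40 for Pls1 and 0.12 to 0.225 for Apoe. For Serpina3g it was -0.49 to 0.027. In these means Blimp1-hi, on which the genes were chosen, weighs more than in the main contrast. They are therefore not a check of the main values at equal weights. Apoe, not called, changed sign to 0.0363 with cyclic loess and to 0.0362 with quantile normalization again without the immunoglobulin probes; the cause was not tested. With no fold threshold, 736 genes were higher and 849 lower in plasma cells, against 133 and 164. Scaling moved no count of calls in the gene lists. With 75th percentile scaling and cyclic loess limma gave every gene the same spread, so Serpina3g then had adjusted p of 0.000483 and 7.21e-07, and 0.0158 with no filter, all under 2-fold. Apoe, and Pls1 in Blimp1-int, lie near background, which limits the precision of their folds. No paired analysis was possible because the Blimp1-hi and naive groups have 1 array each and share fewer than 2 replicate numbers with Blimp1-int.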
